A study of Arabidopsis thaliana with 44 samples.

Results

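In plants, the nucleus encodes most of the proteins that catch light and fix carbon, and 52 such genes of Arabidopsis thaliana were followed here through 44 RNA-seq libraries in 13 groups. They were chosen by locus and protein family and not by their values, though with earlier results of these data known. All 52 are among the 34262 genes listed. They comprise 6 genes of the photosystem I antenna (LHCA1 to LHCA6), 9 copies of the major photosystem II antenna LHCII (LHCB1, LHCB2 and LHCB3), 5 minor antenna genes (LHCB4 to LHCB6), 12 photosystem I subunits, 10 photosystem II subunits, 5 genes of Rubisco (RBCS1A, RBCS1B, RBCS2B, RBCS3B and the activase RCA) and 5 electron carriers (the plastocyanins PETE1 and PETE2, the Rieske protein PETC, and the ferredoxin-NADP reductases FNR1 and FNR2).

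The study concerned PSY5, a tyrosine-sulfated peptide hormone, the sulfotransferase TPST that modifies it, and its receptors PSYR1, PSYR2 and PSYR3. All plants are labelled as 7 days old. Roots were taken from tpst-1, from tpst-1 given 1 uM PSY5, and from tpst/psyr1,2,3 (n = 3 libraries each). Shoots were taken from wild type, tpst-1, tpst-1 given 1 uM PSY5, psyr1,2,3 and tpst/psyr1,2,3 (n = 4 each). Seedlings were tpst-1 throughout, at 0 h and after 2 h, 6 h, 24 h and 7 d of 1 uM PSY5 (n = 3 each). Every root and seedling group therefore carried tpst-1, no wild-type root or seedling was compared, and the time series had no untreated group at the later times, so that PSY5, time and age cannot be told apart in it. How long roots and shoots were exposed to PSY5 and what separates replicates are not given in the labels, so p-values measure only the spread between these libraries, which may be technical.

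Light energy enters through chlorophyll held by the LHCB and LHCA proteins, which pass it to the reaction centres of photosystem II and photosystem I. Water is split at photosystem II with the help of the extrinsic subunits PSBO, PSBP and PSBQ, and the electrons travel through the cytochrome complex and plastocyanin to photosystem I and on to NADP. Rubisco, whose small subunit comes from the RBCS genes, then fixes carbon dioxide. In leaves these transcripts are among the most abundant of the cell, and in roots they are normally held low.

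Short promoter stretches of 4 genes are shown because their transcripts, named in the results that follow, moved in roots, shoots or both. Each is the 250 bases before the annotated start in RefSeq TAIR10.1, read 5′ to 3′ along the gene, and capitals mark the matches of 4 motifs searched on both strands: the G-box CACGTG, the I-box GATAAG, the CCAAT-type CCAATC and the evening element core AATATCT.
LHCB1.5 (chr2:14523569-14523818, minus strand): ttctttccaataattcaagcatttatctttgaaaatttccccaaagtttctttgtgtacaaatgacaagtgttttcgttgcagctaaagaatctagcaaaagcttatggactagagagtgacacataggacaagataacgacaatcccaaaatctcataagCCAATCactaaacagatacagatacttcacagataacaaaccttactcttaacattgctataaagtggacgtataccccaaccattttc
LHCB2.1 (chr2:1824481-1824730, minus strand): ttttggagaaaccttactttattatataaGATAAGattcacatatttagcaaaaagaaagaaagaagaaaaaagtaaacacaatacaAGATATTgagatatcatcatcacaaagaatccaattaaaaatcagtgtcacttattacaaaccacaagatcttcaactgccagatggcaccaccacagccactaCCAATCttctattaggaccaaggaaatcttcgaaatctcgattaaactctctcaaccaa
LHCB2.3 (chr3:10255656-10255905, plus strand): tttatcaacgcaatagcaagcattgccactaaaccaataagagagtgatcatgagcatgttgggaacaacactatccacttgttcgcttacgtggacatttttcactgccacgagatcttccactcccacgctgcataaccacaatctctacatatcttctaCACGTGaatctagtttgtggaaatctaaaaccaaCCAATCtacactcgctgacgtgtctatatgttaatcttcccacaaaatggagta
RBCS2B (chr5:15382072-15382321, minus strand): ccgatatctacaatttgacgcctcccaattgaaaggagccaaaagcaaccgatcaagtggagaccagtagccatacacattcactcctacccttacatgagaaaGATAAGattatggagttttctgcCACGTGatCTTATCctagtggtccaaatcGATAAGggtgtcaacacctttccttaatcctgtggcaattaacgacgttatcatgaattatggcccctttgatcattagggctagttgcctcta

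All 3 LHCB stretches hold 1 CCAATC, which begins 89 bases before the start in LHCB1.5, 59 bases in LHCB2.1 and 54 bases in LHCB2.3. LHCB2.3 also holds a G-box, and LHCB2.1 an I-box and an evening element core. RBCS2B holds a G-box between its I-boxes and no CCAATC. Over all members the CCAATC was present in 14 of 52 stretches (26.9%) against 10.2% of 27443 promoters of the same length, the I-box in 14 (26.9%) against 12.3%, the G-box in 9 (17.3%) against 6.49%, and the evening element core in 6 (11.5%) against 10%. The CCAATC matches fell in 5 of the 9 LHCII genes, 3 of the 6 LHCI genes and 0 of the 12 photosystem I genes. A match is a description of the letters and not a site shown to be used.

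Sequencing depth was 3206526 to 4133623 reads per root library, 8610277 to 16816553 per shoot library and 9878853 to 15401969 per seedling library, so low root values carry the most counting error. Differences are edgeR quasi-likelihood fits, as log2 fold changes with their SE and a p adjusted by the Benjamini-Hochberg method over all genes tested, and a gene was called at an adjusted p below 0.05. Values per library beside them are normalised RPM, reads scaled to a common library size by the TMM method so that most genes match between libraries. Levels of different genes are compared in TPM, which also divides by length. TPST itself was read at 7.20 to 12.1 TPM in roots and 1.36 to 3.38 in seedlings. In shoots it read 7.88 to 9.26 in wild type, 4.50 to 8.31 in tpst-1, 5.87 to 7.44 with PSY5, 11.1 to 12.1 in psyr1,2,3 and 4.92 to 7.68 in tpst/psyr1,2,3, so that tpst-1 overlapped wild type and tpst/psyr1,2,3 lay below psyr1,2,3. The shoot library tpst-1 replicate 1 stands apart from the other 3 of its group. Its 52 members sum to 271640 normalised RPM against 139066 to 165144 in the others, its shoot marker genes to 125 TPM against 215 to 230, and its scaling factor was 0.777 against 0.940 to 1.08 in the other shoot libraries. Shoot counts that use tpst-1, and the genes described from them, are therefore given with and without it.

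The level and the make-up of the set differed between the 3 kinds of tissue. The 52 genes took 11.3% to 15.6% of all TPM in shoots, 6.54% to 9.69% in seedlings and 0.0415% to 0.0891% in roots. In wild-type shoots the LHCII gene LHCB1.3 averaged 16617 TPM, the small subunit gene RBCS1A 11268 TPM and LHCB1.5 9041 TPM. In tpst-1 roots the highest member was PSBR, a small photosystem II subunit, at 38.9 TPM. LHCII genes made up 32.2% of the members' TPM in shoots, 18.3% in seedlings and 12.5% in roots, as means over all libraries of the tissue. Rubisco and its activase made up 17.6%, 39.4% and 5.87% in the same order, and photosystem II subunits 13.9%, 13.9% and 38.0%. The ratio of LHCII to Rubisco transcripts in TPM was 1.51 to 2.65 in 20 shoot libraries and 0.387 to 0.539 in 15 seedling libraries, without overlap. The labels name 2 pairs of kit and instrument without assigning them to samples, so tissue and preparation cannot be told apart in these contrasts.

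**Figure D1:**
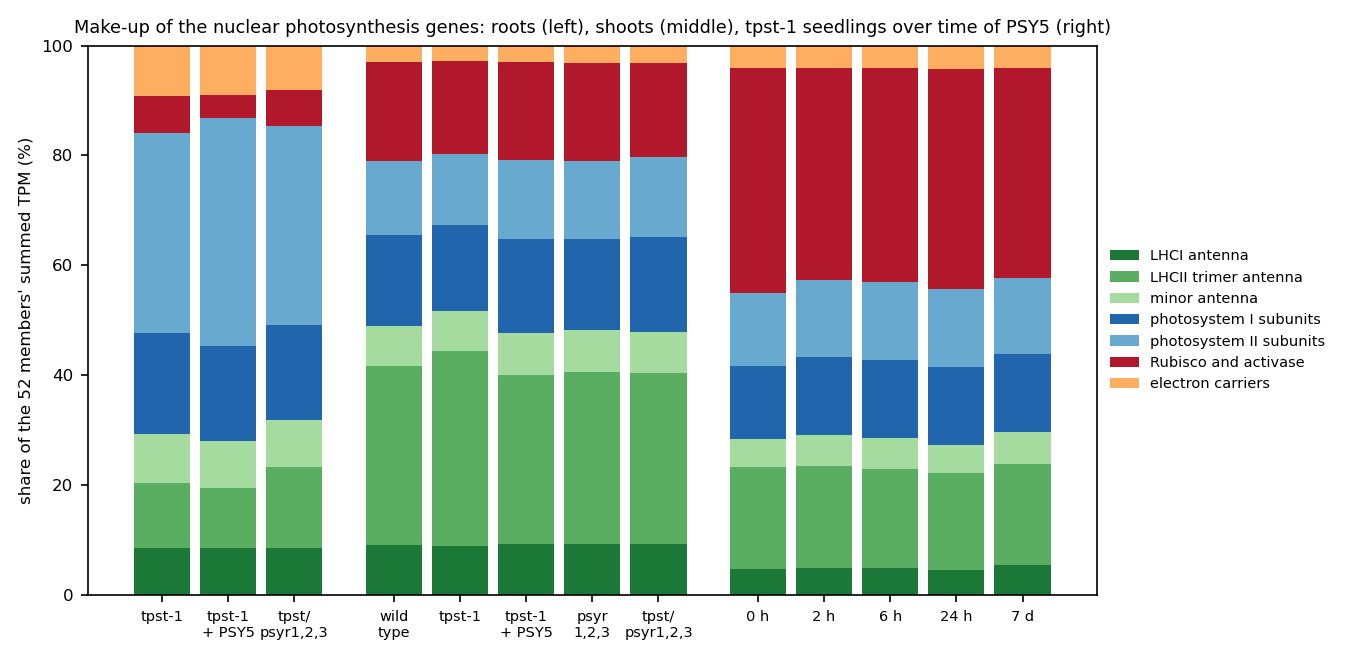
Stacked bars show the share (percent) of the summed TPM of the 52 genes that each of 7 roles took in each of the 13 groups, as means over libraries. LHCII takes 32.2% in shoots against 18.3% in seedlings, Rubisco and activase 17.6% against 39.4%, and photosystem II subunits lead in roots with 38.0%.

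Within families, the shares of the copies also differed. PSAE2, a copy of the stromal photosystem I subunit that docks ferredoxin, held 79.2% ± 12.2 (SD, n = 3) of PSAE TPM in tpst-1 roots and 30.1% ± 1.48 (SD, n = 4) in wild-type shoots. LHCB2.3 held 19.2% ± 0.872 (SD, n = 4) of LHCB2 TPM in wild-type shoots and 3.92% ± 1.05 (SD, n = 3) in seedlings at 0 h. LHCB4.3, a divergent copy of a minor antenna protein, held 0.473% ± 0.0589 of LHCB4 in wild-type shoots and 7.68% ± 0.971 in seedlings at 0 h. RBCS1B held 10.1% ± 0.993 of RBCS in wild-type shoots and 21.6% ± 1.11 in seedlings at 0 h. Copies of LHCB1, of LHCB2 and of RBCS are alike in sequence, and how reads were divided between them is not known here, so the split within such a family is uncertain.

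In tpst-1 all 52 genes were called higher in shoots than in roots, where 35% of 22771 genes were called higher and 31.6% lower, with a median log2 difference of 9.22 against 0.0697 over all genes. The smallest difference was that of LHCB4.3, at 4.72 (SE 0.28, adjusted p = 8.38e-15) in edgeR's quasi-likelihood test with Benjamini-Hochberg adjustment, followed by LHCA5, a low-abundance photosystem I antenna gene, at 5.34 (SE 0.19, adjusted p = 6.14e-20). LHCA6, which in the plant joins photosystem I to the NDH complex, had no reads in any of the 9 root libraries. With it, LHCB1.2, LHCB1.4, LHCB2.3, RBCS2B and PETE1 were below the root minimum of 1 TPM in 3 libraries, so that 46 of the 52 members were tested in roots.

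Loss of the receptors in tpst-1 roots came with higher levels of some members of every role. Without tpst/psyr1,2,3 replicate 2, however, no Rubisco, activase, minor antenna or carrier gene was called. In tpst/psyr1,2,3 roots against tpst-1 roots, 16 of 46 tested members rose (34.8%) and 0 fell, where 7.9% of 19958 genes were called higher and 7.5% lower. Their median log2 fold change was 0.60, against 0.0017 over all genes, and 41 of the 46 were positive. The LHCII genes had the highest median, 1.41 (3 of 6 rose), then Rubisco and activase with 0.74 (1 of 4 rose) and photosystem II subunits with 0.67 (5 of 10 rose). These medians include genes near 0, LHCB1.1 and LHCB2.2 of LHCII and RBCS1B of Rubisco, at 0.351, 0.542 and 0.716 TPM in tpst-1. They averaged 1.48, 2.72 and 3.31 TPM in tpst/psyr1,2,3 and would not have reached the root minimum without those libraries. LHCB2.2 is also among the 16 called, and the order of the roles rests partly on such genes. In the other roles 2 of 5 LHCI, 2 of 5 minor antenna, 1 of 12 photosystem I and 2 of 4 carrier genes rose.

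LHCB1.5 (AT2G34420), a major LHCII gene, read 13.0, 14.2 and 12.9 normalised RPM in the tpst-1 root libraries. It read 25.1, 27.2 and 29.1 with PSY5 and 41.3, 50.3 and 31.7 in tpst/psyr1,2,3. The 3 groups did not overlap and lay in that order. The log2 fold change was 1.03 (SE 0.17, adjusted p = 0.000109) for PSY5 and 1.62 (SE 0.16, adjusted p = 9.88e-08) for tpst/psyr1,2,3 in edgeR's quasi-likelihood test, 2 comparisons that share the tpst-1 libraries.

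Of the 10 photosystem II subunits, 5 rose in tpst/psyr1,2,3 and 3 with PSY5. PSBR (AT1G79040), which helps assemble the water-splitting side, read 22.5, 18.2 and 20.5 normalised RPM in tpst-1, 33.6, 32.5 and 30.4 with PSY5 and 38.6, 38.1 and 39.9 in tpst/psyr1,2,3, again without overlap. It rose by 0.65 (SE 0.12, adjusted p = 0.000431) with PSY5 and by 0.92 (SE 0.12, adjusted p = 4.66e-06) in tpst/psyr1,2,3. PSBO1 (AT5G66570), the main manganese-stabilising protein, read 23.9, 21.9 and 27.3 in tpst-1, 35.5, 37.3 and 30.1 with PSY5 and 37.1, 44.8 and 37.2 in tpst/psyr1,2,3. All 6 libraries of the other 2 groups were above the tpst-1 libraries, and PSBO1 rose by 0.48 (SE 0.13, adjusted p = 0.0109) and 0.70 (SE 0.13, adjusted p = 0.000362) in the edgeR fits. PSBS, the sensor of non-photochemical quenching, rose by 0.71 (SE 0.23, adjusted p = 0.0379) and 0.76 (SE 0.23, adjusted p = 0.0264). PSBP1, a partner of PSBO, rose in tpst/psyr1,2,3 by 0.64 (SE 0.14, adjusted p = 0.00274), whereas with PSY5 its value was 0.21 (SE 0.15, adjusted p = 0.421).

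Among photosystem I genes, PSAF (AT1G31330), the subunit that binds plastocyanin, read 9.58, 10.2 and 12.3 normalised RPM in tpst-1 roots. With PSY5 it read 18.0, 17.3 and 17.9, and in tpst/psyr1,2,3 18.4, 22.2 and 19.8. Both groups lay above tpst-1, and the edgeR differences were 0.73 (SE 0.16, adjusted p = 0.00245) and 0.92 (SE 0.16, adjusted p = 0.000262). LHCA4, of the photosystem I antenna, rose in tpst/psyr1,2,3 by 0.84 (SE 0.19, adjusted p = 0.00278), and RCA (AT2G39730), which reactivates Rubisco, by 0.71 (SE 0.17, adjusted p = 0.00606). RCA read 26.2, 21.6 and 30.7 in tpst-1 and 34.7, 59.4 and 34.4 in tpst/psyr1,2,3, where replicate 2 was far above the other 2.

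With PSY5 in tpst-1 roots the share of members called was near that of all genes. Of 46 members 5 rose (10.9%), LHCB1.5, PSBR, PSAF, PSBO1 and PSBS, and 2 fell (4.35%), LHCB1.3 and RBCS1A, where 7.52% of all genes were called higher and 7.69% lower. The median over the members was -0.08, against 0.0018 over all genes. LHCB1.3 (AT1G29930) read 16.9, 27.4 and 28.8 normalised RPM in tpst-1 and 13.1, 5.97 and 9.06 with PSY5, with no overlap, and fell by 1.37 (SE 0.34, adjusted p = 0.00625). RBCS1A (AT1G67090) read 7.61, 11.1 and 17.2 in tpst-1 and 4.58, 1.49 and 5.87 with PSY5, also without overlap, and fell by 1.53 (SE 0.44, adjusted p = 0.0182).

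Nearly all LHCB1 reads in roots came from LHCB1.3 and LHCB1.5, which were called in opposite directions with PSY5. LHCB1.3 lies beside LHCB1.1 and LHCB1.2 on chromosome 1 (chr1:10472280-10479114 in TAIR10.1) and LHCB1.5 beside LHCB1.4 on chromosome 2 (chr2:14522524-14525918). LHCB1.1 read 0, 0.925 and 0 normalised RPM in tpst-1 roots, LHCB1.2 read 1.13, 0 and 0, and LHCB1.4 had no reads there. LHCB1.5 held 40.6% ± 6.00 (SD, n = 3) of LHCB1 TPM in tpst-1 roots, 78.4% ± 7.23 with PSY5 and 63.9% ± 8.77 in tpst/psyr1,2,3. The chromosome 1 copies together averaged 25.1 normalised RPM in tpst-1 roots and 9.47 with PSY5. The chromosome 2 pair averaged 13.3 and 27.2, so the fall and the rise were of like size. How reads were divided between these copies is not known, and a shift in that division was not tested.

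**Figure D2:**
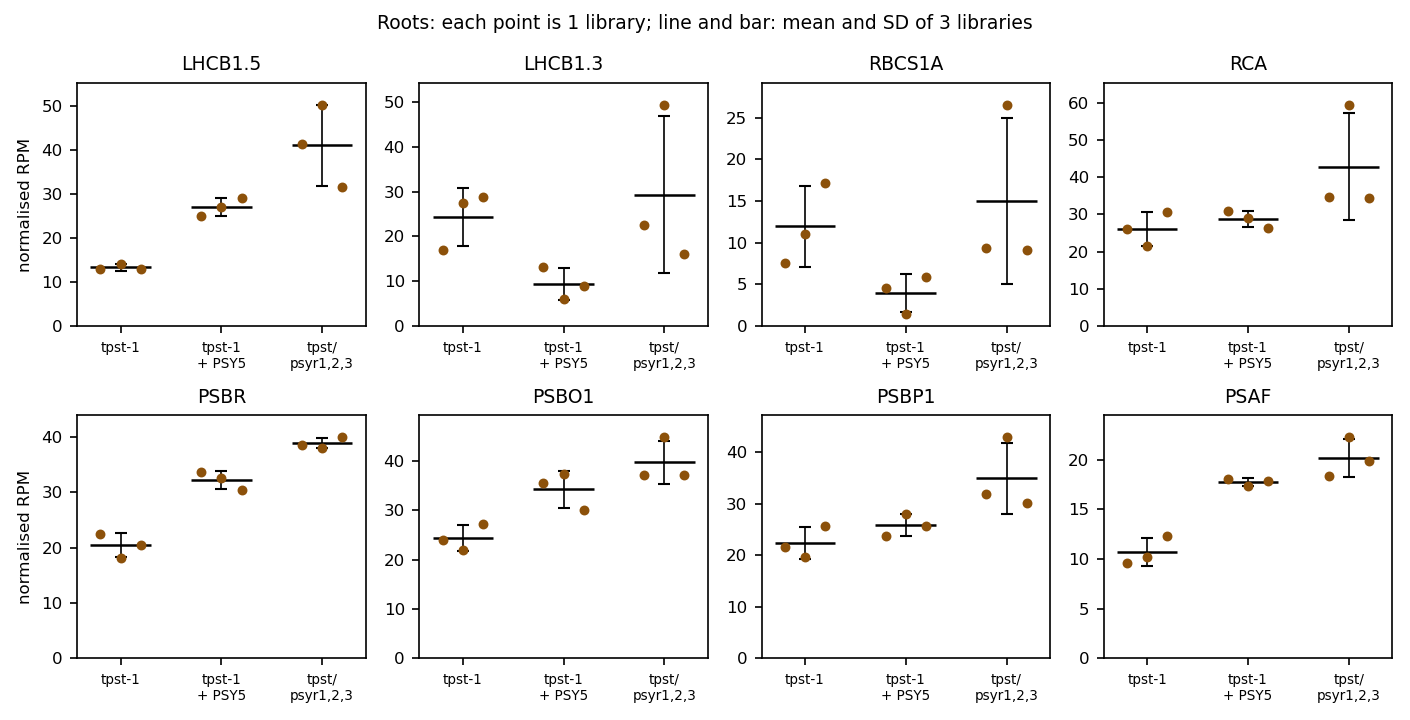
Normalised RPM of 8 members in each of the 9 root libraries, 1 panel a gene, with points for libraries and lines and bars for the group mean and SD. LHCB1.5 rises through the 3 groups without overlap, LHCB1.3 and RBCS1A are lowest with PSY5, and replicate 2 of tpst/psyr1,2,3 is the highest point for RCA, LHCB1.3 and RBCS1A.

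Between the 2 altered root groups, 3 of 46 members were called higher in tpst/psyr1,2,3 than with PSY5 and 0 lower, where 0.316% of all genes were called higher and 0.22% lower. They were LHCB1.3 at 1.65 (SE 0.33, adjusted p = 0.0168), RBCS1A at 1.86 (SE 0.42, adjusted p = 0.0425) and LHCB2.2, which had no reads in the 3 PSY5 libraries and 0.603, 4.26 and 2.44 normalised RPM in tpst/psyr1,2,3 (adjusted p = 0.0373 in the edgeR fit). LHCB2.2 averaged 0.542 TPM in tpst-1 roots. It would not have reached the root minimum without the tpst/psyr1,2,3 libraries, so its call lends no support here. Without PSY5 replicate 1 the count was 1, and without PSY5 replicate 2 or 3 it was 0. The median over the members was 0.56, against 0.0077 over all genes.

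Replicate 2 of tpst/psyr1,2,3 had the highest member sum, 753 normalised RPM against 523 and 509.8 in the other 2 libraries and 347 to 430.5 in tpst-1. Without it 6 members were called higher than in tpst-1, LHCB1.5, PSBR, PSAF, PSBO1, PSBP1 and LHCA4, with a median of 0.41, and 0 differed from the PSY5 roots. Without tpst-1 replicate 1 the count was 7, and without PSY5 replicate 2 the PSY5 count was 3. Shoot markers outside photosynthesis summed to 13.9 to 18.7 TPM in tpst-1, 15.3 to 18.4 with PSY5 and 16.4, 19.1 and 21.7 in tpst/psyr1,2,3, nearly all of it AS1, at 13.4 to 19.9 TPM over the 9 libraries, against at most 1.56 for KAT1. The leaf and stomatal markers YAB2, SPCH, FAMA and EPF2 were at 0 in all 9 root libraries and YAB1 and YAB5 in 8 of 9. Root markers moved with the receptor loss as well, 8 of 10 higher and 1 lower, from 351 to 375 TPM in tpst-1 to 512 to 577, and 5 of 11 clock genes rose. Their part in the result was not tested. In bulk RNA a change in the number of cells of a type and a change in RNA per cell cannot be told apart.

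**Figure D3:**
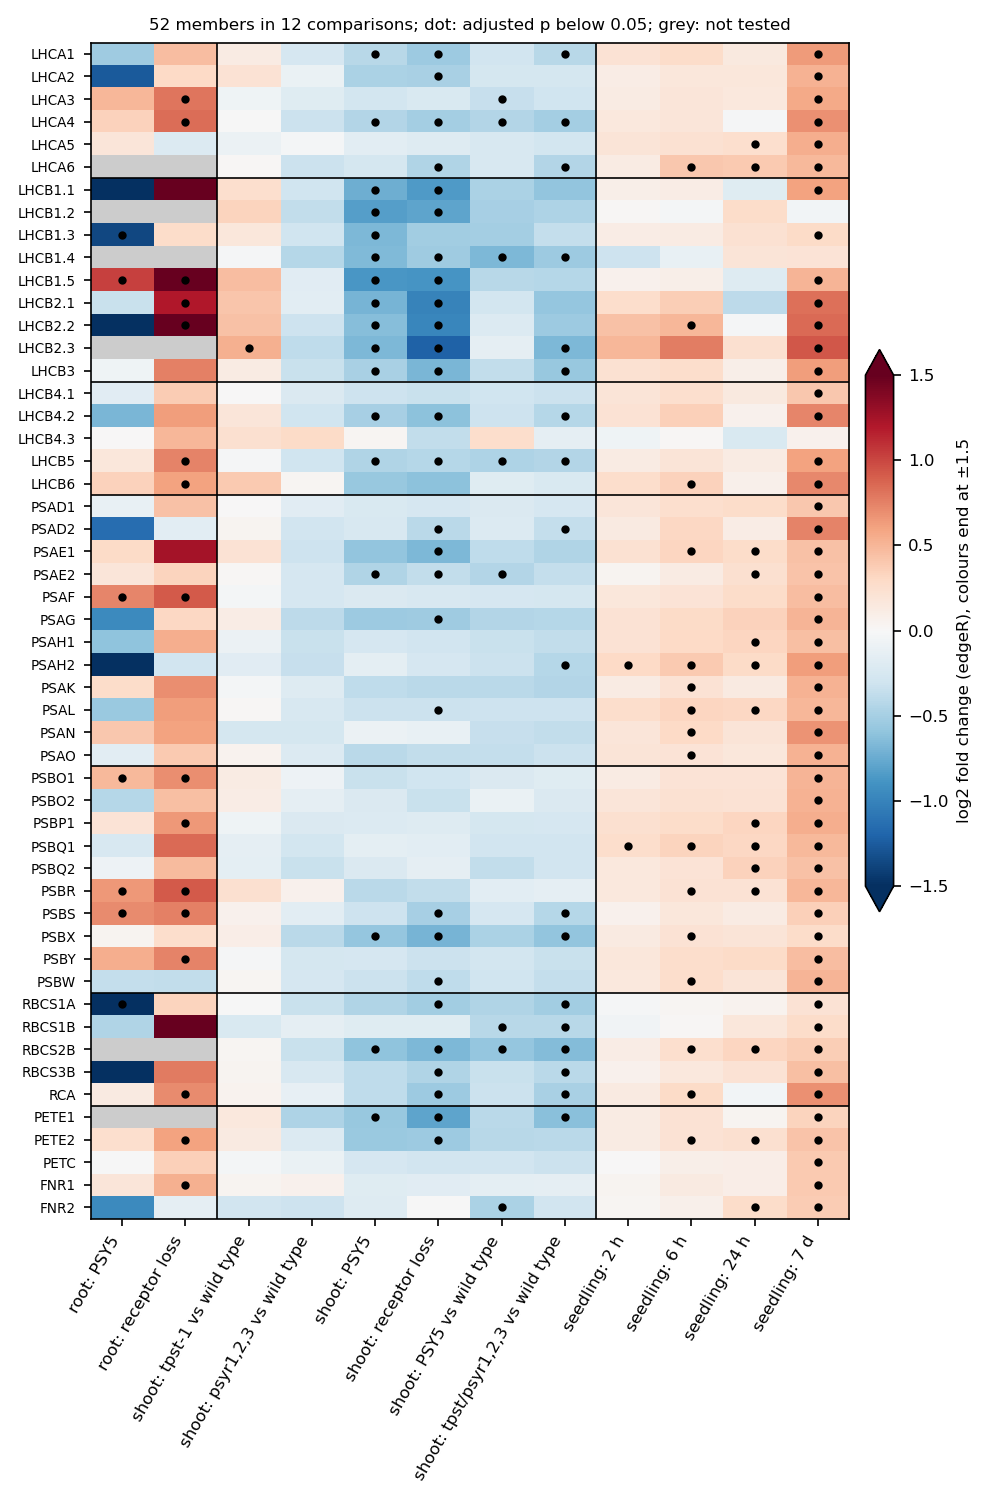
Heat map of log2 fold changes of the 52 genes (rows, by role) in 12 comparisons (columns). Colours end at 1.5 either way, dots mark an adjusted p below 0.05 in edgeR and grey marks genes not tested. Roots without the receptors are mostly raised (16 called), both shoot contrasts with tpst-1 lowered (17 and 28 called) and seedlings at 7 d raised (49 called).

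Against tpst-1 shoots the called members were all lower, both with PSY5 and without the receptors. With PSY5, 17 of 52 members fell in tpst-1 shoots and 0 rose, where 3.84% of 20723 genes were called lower and 1.32% higher, and the median was -0.38 against -0.014 over all genes. All 9 LHCII genes fell, with a median of -0.67. In the other roles 2 of 6 LHCI, 2 of 5 minor antenna, 1 of 12 photosystem I, 1 of 10 photosystem II, 1 of 5 Rubisco and 1 of 5 carrier genes fell. Without tpst-1 replicate 1 the count was 11 of 52, 5 of them LHCII genes, with a median of -0.23, and without tpst-1 replicate 4 it was 26. Without PSY5 replicate 1, 2 or 3 it was 5, 1 or 5, and with only the compared groups in the fit it was 0.

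In tpst/psyr1,2,3 shoots against tpst-1 shoots, 28 of 52 members fell and 0 rose, where 9.78% of all genes were called lower and 5.18% higher. The median was -0.41 against -0.013 over all genes, and 52 of 52 were negative. By role, 8 of 9 LHCII genes (median -0.85), 4 of 6 LHCI, 2 of 5 minor antenna, 5 of 12 photosystem I, 3 of 10 photosystem II, 4 of 5 Rubisco and 2 of 5 carrier genes fell. Without tpst-1 replicate 1 the count was 19, 7 of them LHCII genes, and the median -0.24, and with only the compared groups in the fit it was 6.

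LHCB2.3 (AT3G27690), of the LHCB2 family that takes part in state transitions, read 1675, 1104, 946 and 898 normalised RPM in tpst-1 shoots, replicate 1 first. It read 739, 911, 769 and 780.1 in wild type, 739.8, 633, 688 and 846 with PSY5, 671, 548, 613 and 619 in psyr1,2,3 and 460.1, 488, 517 and 535 in tpst/psyr1,2,3. The tpst/psyr1,2,3 libraries lay below all others, and the PSY5 libraries lay below all of tpst-1. LHCB2.3 fell by 1.21 (SE 0.15, adjusted p = 1.09e-05) in tpst/psyr1,2,3 and by 0.67 (SE 0.15, adjusted p = 0.0103) with PSY5, and without tpst-1 replicate 1 by 0.97 (adjusted p = 6.96e-07) and 0.44 (adjusted p = 0.0122) in the same edgeR test.

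LHCB2.1 (AT2G05100), its relative, read 4277, 2528, 1946 and 1792 in tpst-1 and 1178, 1331, 1343 and 1401 in tpst/psyr1,2,3, without overlap. It fell by 1.01 (SE 0.19, adjusted p = 0.00106), or by 0.67 (adjusted p = 0.000556) without tpst-1 replicate 1. With PSY5 it read 1716, 1487, 1503 and 1814, which overlapped tpst-1. Its decrease with PSY5 was -0.69 (SE 0.19, adjusted p = 0.0366) with all libraries and its value without tpst-1 replicate 1 was -0.36 (adjusted p = 0.098), no longer called. LHCB3 (AT5G54270), an LHCII subunit, read 6859, 4610.4, 4372 and 4497 in tpst-1, 3562, 3283, 3729.9 and 3982 with PSY5 and 2919.8, 3115, 3319 and 3309 in tpst/psyr1,2,3. Neither of the last 2 groups overlapped tpst-1, and LHCB3 fell by 0.48 (SE 0.12, adjusted p = 0.0206) and 0.68 (SE 0.12, adjusted p = 0.000518) in the edgeR fits. It was at -0.30 (adjusted p = 0.0221) and -0.50 (adjusted p = 9.33e-05) without tpst-1 replicate 1.

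All 5 LHCB1 copies fell in shoots with PSY5. LHCB1.5 read 22728, 11504, 10564 and 7948 in tpst-1, 6867, 6846, 6914 and 8204 with PSY5 and 6059.6, 7126, 7622 and 7845 in tpst/psyr1,2,3. PSY5 replicate 4 overlapped the lowest tpst-1 library, whereas no tpst/psyr1,2,3 library did. LHCB1.5 fell by 0.87 (SE 0.21, adjusted p = 0.0143) with PSY5 and by 0.88 (SE 0.21, adjusted p = 0.00559) in tpst/psyr1,2,3. Leaving out tpst-1 replicate 1, these were -0.47 (adjusted p = 0.0175) and -0.48 (adjusted p = 0.00646). In the same fit with PSY5, LHCB1.2 was at -0.44 (adjusted p = 0.025) and LHCB1.4 at -0.45 (adjusted p = 0.0463), whereas LHCB1.1 at -0.37 (adjusted p = 0.0513) and LHCB1.3 at -0.28 (adjusted p = 0.0858) were no longer called.

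Outside LHCII, PETE1 (AT1G76100), a plastocyanin, read 458, 311, 307 and 259 in tpst-1, 211, 219, 212 and 258 with PSY5 and 191, 188, 207 and 189 in tpst/psyr1,2,3, below tpst-1 in all 8 libraries. It fell by 0.57 (SE 0.13, adjusted p = 0.0112) and 0.79 (SE 0.13, adjusted p = 0.000257) in the edgeR fits, and without tpst-1 replicate 1 by 0.38 (adjusted p = 0.0117) and 0.59 (adjusted p = 5.42e-05). RBCS2B (AT5G38420), a Rubisco small subunit gene, read 3753, 2243, 2329 and 2494 in tpst-1, 1819.8, 1620.4, 1788 and 1887 with PSY5 and 1427, 1608, 1859 and 1886 in tpst/psyr1,2,3, also without overlap. It fell by 0.60 (SE 0.14, adjusted p = 0.013) and 0.67 (SE 0.14, adjusted p = 0.00231). LHCA4 fell by 0.44 (SE 0.11, adjusted p = 0.0161) and 0.51 (SE 0.11, adjusted p = 0.00232). PSBS fell in tpst/psyr1,2,3 by 0.50 (SE 0.10, adjusted p = 0.00161). When tpst-1 replicate 1 was left out, RBCS2B was at -0.41 (adjusted p = 0.02) and -0.47 (adjusted p = 0.0025), LHCA4 at -0.32 (adjusted p = 0.0191) and -0.39 (adjusted p = 0.00194), and PSBS in tpst/psyr1,2,3 at -0.42 (adjusted p = 0.00145). PSBO1 and PSAF, which rose in roots without the receptors, were not called in tpst/psyr1,2,3 shoots, at -0.30 (SE 0.14, adjusted p = 0.159) and -0.24 (SE 0.15, adjusted p = 0.307), and without that library they were at -0.075 (adjusted p = 0.657) and 0.025 (adjusted p = 0.896).

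**Figure D4:**
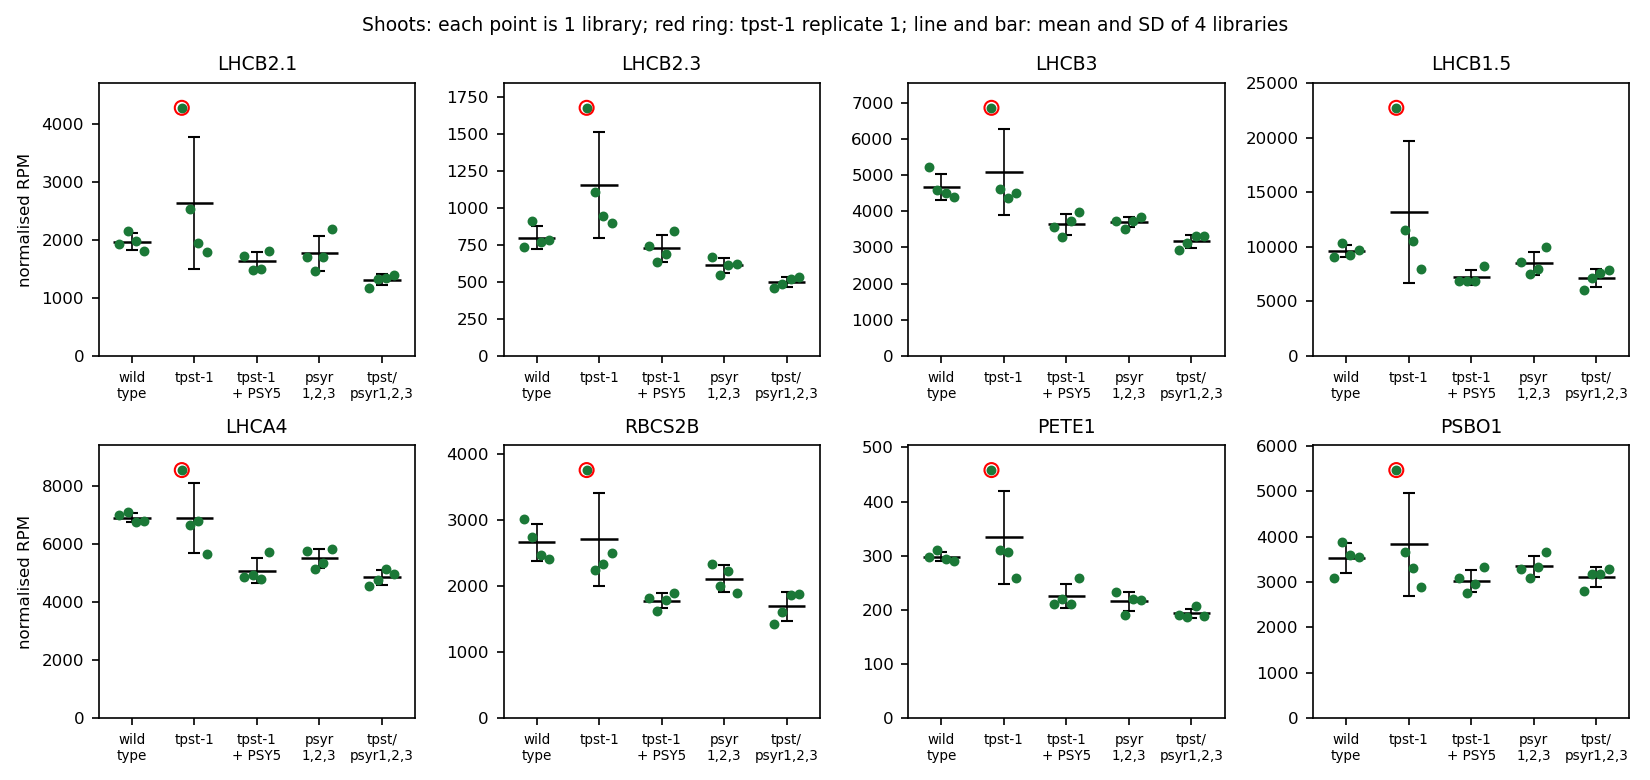
Normalised RPM of 8 members in each of the 20 shoot libraries, 1 panel a gene, with points for libraries and lines and bars for the group mean and SD, and tpst-1 replicate 1 ringed in red. That library is the highest point for LHCB2.1, LHCB2.3 and LHCB1.5, and the highest of its group for PETE1 and RBCS2B. The PSY5 and tpst/psyr1,2,3 libraries lie low for PETE1 and RBCS2B.

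Wild-type shoots give comparisons whose fold changes do not use the untreated tpst-1 libraries, although these enter the estimate of the spread that all shoot groups share. Against wild type, 8 of 52 members were lower in PSY5-treated tpst-1 and 0 higher, where 1.56% of all genes were called lower and 3.54% higher, with a median of -0.32 against 0.0013 over all genes. FNR2, which hands electrons to NADP, fell by 0.47 (SE 0.10, adjusted p = 0.00536), LHCA4 by 0.44 (SE 0.11, adjusted p = 0.0153), RBCS2B by 0.58 (SE 0.14, adjusted p = 0.0166), and LHCB1.4 by 0.68 (SE 0.16, adjusted p = 0.0166) in the edgeR fit. With the reads of alike copies summed before the fit, LHCB1.4 with LHCB1.5 was at -0.48 (adjusted p = 0.175), not called. RBCS1B, RBCS2B and RBCS3B together were at -0.40 (adjusted p = 0.0494). For tpst/psyr1,2,3, 18 of 52 were lower than in wild type and 0 higher, where 3.45% of all genes were called lower and 3.6% higher, with a median of -0.39 against 0.0018 over all genes. Every Rubisco gene was among them (5 of 5), with 3 of 9 LHCII, 3 of 6 LHCI, 2 of 5 minor antenna, 2 of 12 photosystem I, 2 of 10 photosystem II and 1 of 5 carrier genes. PETE1 fell by 0.63 (SE 0.13, adjusted p = 0.00432), LHCA4 by 0.51 (SE 0.11, adjusted p = 0.00454), LHCB3 by 0.56 (SE 0.12, adjusted p = 0.00537), and LHCB2.3 by 0.68 (SE 0.15, adjusted p = 0.0074). RBCS1A read 15446, 12798, 11789 and 11745 in wild type and 8589.6, 8855, 9674 and 9008 in tpst/psyr1,2,3, without overlap. Of the Rubisco genes only RBCS2B was still called in edgeR without wild-type replicate 1, at -0.58 (adjusted p = 0.0301). RBCS1A was then at -0.42 (adjusted p = 0.161), RBCS1B at -0.39 (adjusted p = 0.0868), RBCS3B at -0.34 (adjusted p = 0.141) and RCA at -0.53 (adjusted p = 0.0531). The first count was 3, 3 or 4 without wild-type replicate 1, 2 or 3, and 3, 1 or 2 without PSY5 replicate 1, 2 or 3, and the second 8, 8 or 10 without those wild-type libraries and 7 or 8 without tpst/psyr1,2,3 replicate 1 or 2. With only the compared groups in the fit they were 36 and 44.

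Shoot markers and clock genes also moved in these shoots. Of 11 shoot markers 2 fell against wild type in both groups, the leaf polarity genes YAB1, by 0.53 (SE 0.14, adjusted p = 0.0249) with PSY5 and 0.59 (SE 0.14, adjusted p = 0.0103) in tpst/psyr1,2,3, and YAB3, by 0.44 (SE 0.11, adjusted p = 0.0244) and 0.47 (SE 0.11, adjusted p = 0.0146), and 0 rose. The summed markers were at 231 to 244 TPM in wild type, 205 to 239 with PSY5 and 247 to 271 in tpst/psyr1,2,3. Of 11 clock genes 3 fell in tpst/psyr1,2,3 against wild type and 0 rose, the morning genes LHY, by 1.21 (SE 0.12, adjusted p = 3.18e-06), CCA1, by 0.96 (SE 0.14, adjusted p = 0.000324), and RVE8, by 1.11 (SE 0.13, adjusted p = 2.52e-05) in the edgeR fit. With PSY5 0 of 11 were called in edgeR against wild type, and 3 were lower at an unadjusted p below 0.05, LHY at -0.40 (adjusted p = 0.0535), RVE8 at -0.41 (adjusted p = 0.0586) and CCA1 at -0.37 (adjusted p = 0.151). Against tpst-1, 1 marker, KAT1, rose in each group, and 0 and 5 clock genes were called (2 higher and 3 lower in tpst/psyr1,2,3, or 3 and 3 without tpst-1 replicate 1). Their part in the lower members was not tested.

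Fewer members were called for the single defects against wild type than for tpst/psyr1,2,3, although counts of calls do not show that fewer moved. In tpst-1 against wild-type shoots 1 of 52 members, LHCB2.3, rose by 0.53 (SE 0.15, adjusted p = 0.0269) and 0 fell, where 7.07% of all genes were called higher and 2.14% lower. Without tpst-1 replicate 1 LHCB2.3 was at 0.30 (adjusted p = 0.0638), and 6 members were lower instead, RBCS1B, PSAN, PETC, PSAK, RBCS1A and FNR2. No member was called without wild-type replicate 1, 3 or 4, and 4 were without tpst-1 replicate 4. In psyr1,2,3 against wild-type shoots 0 of 52 were called in edgeR, where 1.82% of all genes were called either way. Of these members 25 were lower at an unadjusted p below 0.05 and 0 higher, DESeq2 called 6, limma 1 and edgeR on the compared groups alone 13, and the median was -0.26 against 0.0062 over all genes. The lowest adjusted p was that of PETE1, -0.47 (SE 0.13, adjusted p = 0.0684). In tpst/psyr1,2,3 against psyr1,2,3 shoots 0 of 52 were called either, where 0.458% of all genes were called, with 7 lower and 0 higher at an unadjusted p below 0.05. DESeq2 and limma also called 0 there, and the median was -0.14 against -0.003 over all genes.

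Whether the tpst-1 effect depended on the receptors was tested as a difference of differences. LHCB2.3 was called, at -0.82 (SE 0.21, adjusted p = 0.0353) in edgeR's quasi-likelihood test, 1 of 52 members where 2.42% of all genes were called lower and 0.357% higher, and without tpst-1 replicate 1 at -0.59 (adjusted p = 0.0158). The call was lost on leaving out any of 10 other single libraries. Of the 4 tpst-1 libraries 3 lay above the highest wild-type library, and all 4 tpst/psyr1,2,3 libraries lay below the lowest psyr1,2,3 library. LHCB2.1 had the next lowest adjusted p, at -0.85 (SE 0.27, adjusted p = 0.106).

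The PSY5 and receptor-loss effects differed between shoots and roots for several members in the joint edgeR fit. For PSY5, 7 of 52 were lower in shoots relative to roots and 0 higher, where 2.16% of 22771 genes were called lower and 1.24% higher. For receptor loss 21 were lower and 0 higher, where 3.61% and 1.69% of genes were. LHCB1.5 led both, with shoot minus root differences of -1.92 (SE 0.35, adjusted p = 0.00129) and -2.52 (SE 0.34, adjusted p = 2.94e-05). PSBR differed by -1.07 (SE 0.28, adjusted p = 0.027) and -1.32 (SE 0.28, adjusted p = 0.00398), PSBO1 by -0.85 (SE 0.23, adjusted p = 0.0337) and -1.02 (SE 0.23, adjusted p = 0.00662), and PSAF by -0.97 (SE 0.26, adjusted p = 0.0351) and -1.17 (SE 0.26, adjusted p = 0.00662). Without shoot tpst-1 replicate 1 the counts were 6 and 19. Without root tpst/psyr1,2,3 replicate 2 the receptor-loss count was 8, and without root tpst-1 replicate 1 it was 12. The PSY5 count was 2, 2 or 4 without root tpst-1 replicate 1, 2 or 3, 3 without root PSY5 replicate 1 or 2, and 2 or 3 without shoot PSY5 replicate 2 or 3. With only the compared groups in the fit the counts were 1 and 5.

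In tpst-1 seedlings most members were higher at 7 d of PSY5 than at 0 h, without a steady rise through the times between. At 7 d, 49 of 52 were higher than at 0 h and 0 lower, where 8.53% of 21069 genes were called higher and 10.8% lower, with a median of 0.50 against 0 over all genes. All 12 photosystem I, 10 photosystem II, 6 LHCI, 5 Rubisco and 5 carrier genes rose, with 7 of 9 LHCII and 4 of 5 minor antenna genes. LHCB1.2, LHCB1.4 and LHCB4.3 did not pass, at -0.041, 0.20 and 0.06. With alike copies summed before the edgeR fit, LHCB1.1 to LHCB1.3 together rose by 0.31 (adjusted p = 0.0402). LHCB1.4 with LHCB1.5 rose by 0.47 (adjusted p = 0.0257). Plants of both 0 h and 7 d are labelled as 7 days old, so their age when PSY5 was first given is not clear. The PSY5 exposure and any passage of time between these groups cannot be told apart here.

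RCA read 3711, 4978 and 4228 normalised RPM at 0 h, 3969.9, 3952 and 4648 at 24 h and 6981, 6593 and 7191 at 7 d. The 7 d libraries lay above all others, and RCA rose by 0.69 (SE 0.084, adjusted p = 3.5e-06). PSAN, a lumenal photosystem I subunit, read 384, 469.9 and 372 at 0 h and 674, 647 and 638 at 7 d, without overlap, and rose by 0.68 (SE 0.085, adjusted p = 4.79e-06). PSBO1 read 1625, 1945 and 1612 and 2272, 2406 and 2705 at the same times, also without overlap, and rose by 0.51 (SE 0.074, adjusted p = 3.21e-05). The LHCB2 copies had the greatest fold changes among the called members, 0.93 (SE 0.28, adjusted p = 0.0221) for LHCB2.3, 0.85 (SE 0.16, adjusted p = 0.000524) for LHCB2.2 and 0.83 (SE 0.14, adjusted p = 0.000249) for LHCB2.1.

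Earlier times gave fewer calls. At 2 h 2 of 52 members rose, PSBQ1 of the water-splitting side and PSAH2 of photosystem I, and 0 fell, where 4.53% of all genes were called higher and 8.01% lower. At 6 h 16 rose and 0 fell, where 5.89% of all genes rose and 8.56% fell, and at 24 h 14 rose and 0 fell, where 5.43% and 8.63% did. The medians over the members were 0.15, 0.22 and 0.20, against 0.0027, 4e-05 and 0.0071 over all genes. At 6 h 6 of 12 photosystem I genes and 1 of 9 LHCII genes were among them, and at 24 h 5 of 12 and 0 of 9. PSBQ1 rose by 0.26 (SE 0.073, adjusted p = 0.0204), 0.33 (SE 0.073, adjusted p = 0.00299) and 0.31 (SE 0.073, adjusted p = 0.0056) at the 3 times. These comparisons share the 0 h libraries, and without 0 h replicate 3 the counts were 0, 3 and 3, without 0 h replicate 2 11, 32 and 27, and without 0 h replicate 1 0, 5 and 7. Of the libraries of the later times, leaving out 2 h replicate 2 or 3 gave 0, 6 h replicate 1, 2 or 3 gave 6, 4 or 9, and 24 h replicate 2 or 3 gave 7 or 9.

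LHCB2.1 is followed through the series here. It read 566, 676 and 583 normalised RPM at 0 h, 677, 772 and 745 at 2 h, 775, 759 and 833 at 6 h, 434, 319 and 643 at 24 h and 1079, 1075 and 1087 at 7 d. The 6 h libraries lay above 0 h, those of 24 h reached below it, and those of 7 d lay above all. From 24 h to 7 d it rose by 1.22 (SE 0.15, adjusted p = 1.32e-05), and 27 of 52 members rose over that interval with 0 lower, where 5.16% of all genes were called higher and 4.6% lower (17 without 24 h replicate 1). LHCB2.2 was called at 6 h, at 0.50 (SE 0.16, adjusted p = 0.0387), and was at -0.02 (SE 0.16, adjusted p = 0.96) at 24 h. At 24 h, replicate 3 was above the other 2 for LHCB2.1 and for LHCB1.5, which read 1239.5, 1112 and 2004. Without that library 4 members were higher than at 0 h and 5 lower, the latter being LHCB2.1 at -0.69, LHCB1.5 at -0.50, LHCB1.1 at -0.49, LHCB2.2 at -0.37 and LHCA4 at -0.27. LHCB1.2 and LHCB1.3 were at 0.10 and 0.13 there. LHCB1.1 to LHCB1.3 together read 11043 and 11885 in 24 h replicates 1 and 2, within the 0 h range of 9622 to 12322. LHCB1.4 with LHCB1.5 read 1386 and 1292, below 1717 to 2018 at 0 h. A shift in how reads were divided between copies was not tested. Shoot markers summed to 125 to 134 TPM at 0 h, 166 to 167 at 24 h and 129 to 149 at 7 d, root markers to 53.4 to 69.1, 65.4 to 73.6 and 68.8 to 91.6, and 4 of 11 clock genes rose and 4 fell by 7 d. Their part in these changes was not tested.

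**Figure D5:**
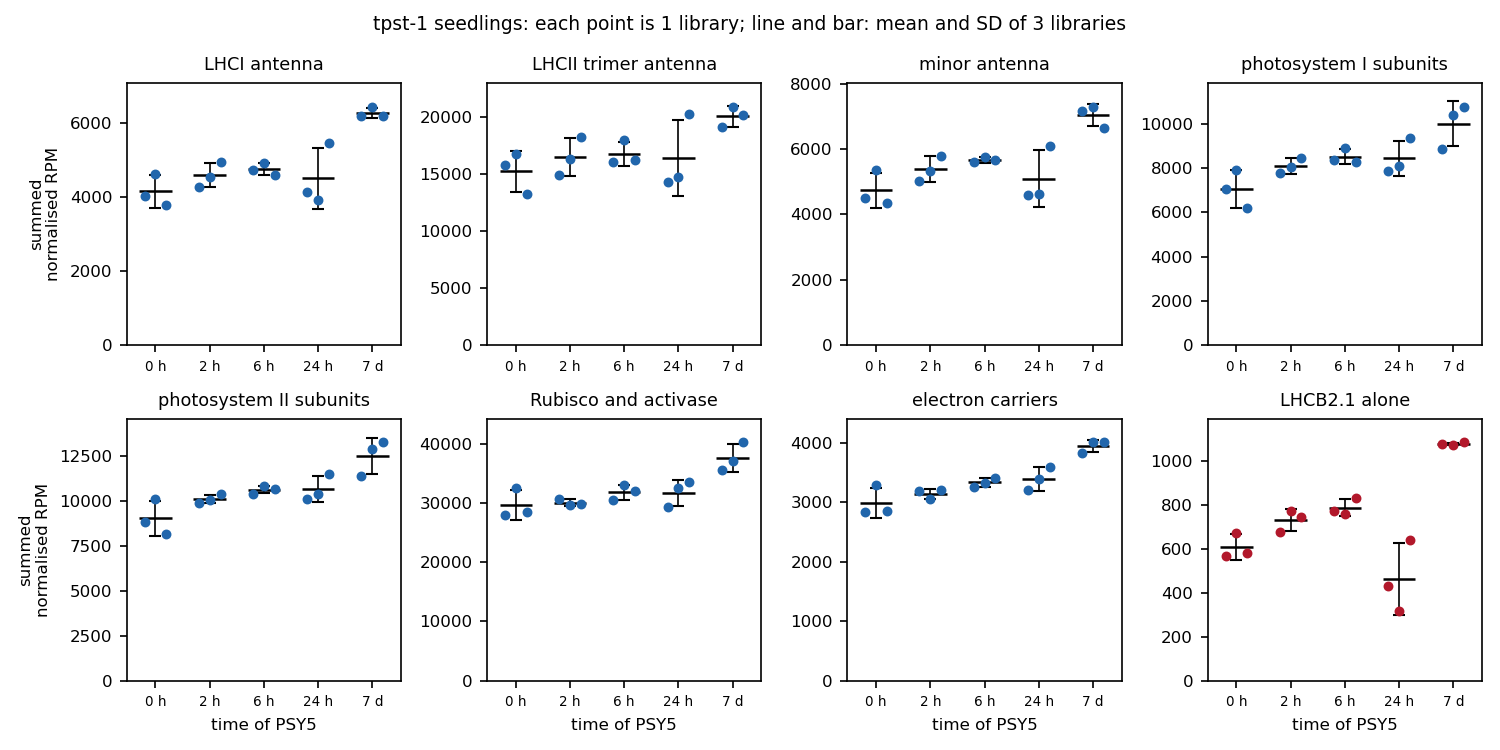
Summed normalised RPM of the 7 roles, and LHCB2.1 alone, in the 15 seedling libraries by time of PSY5, with points for libraries and lines and bars for the group mean and SD. LHCB2.1 lies at 1075 to 1087 at 7 d and as low as 319 at 24 h.

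Genes around the members gave a like picture in part, to be read beside the shares of all genes called in each contrast, given above. In tpst/psyr1,2,3 roots, 3 of 14 tested regulators of photosynthesis genes rose, including GLK2, an activator of LHC genes, at 0.97 (SE 0.28, adjusted p = 0.018), and 0 fell. Of 24 chlorophyll synthesis genes 3 rose and 1 fell, which is near the shares of all genes in that contrast, and both lists are short. Among those that rose was CHLH, a magnesium chelatase subunit, at 0.56 (SE 0.11, adjusted p = 0.00092) in the edgeR fit. In the same roots 0 of 17 Calvin cycle genes were called in either direction. In tpst/psyr1,2,3 against tpst-1 shoots, 5 of 11 photorespiration genes, 7 of 18 Calvin cycle genes and 6 of 11 genes of the ATP synthase and electron flow fell. Examples are FBA1, an aldolase, at -0.77 (SE 0.10, adjusted p = 2.17e-05), GOX1, glycolate oxidase, at -0.56 (SE 0.083, adjusted p = 7.18e-05), and FD1, a leaf ferredoxin, at -0.80 (SE 0.14, adjusted p = 0.000385). Of these 3 lists 0, 1 and 0 genes rose. Without tpst-1 replicate 1 the counts lower were 7, 7 and 5. All 7 tested genes of the chloroplast genome were lower in tpst/psyr1,2,3 than in tpst-1 shoots, with a median of -1.83 (-1.65 without that library), and lower than in wild type, with a median of -1.43. In edgeR fits with alike nuclear copies summed, all 7 were positive in PSY5-treated tpst-1 against wild-type shoots, at 0.11 to 0.78. Of these only psbC was called, at 0.50 (adjusted p = 0.0214). None of the 7 was called in the difference of differences between the tpst-1 effect with and without the receptors. In wild-type shoots psbA and rbcL averaged 111 and 174 normalised RPM, against 20986 for LHCB1.3. Chloroplast transcripts took 7.47% to 13.0% of TPM over the shoot libraries. How well the preparation captured chloroplast RNA is not known here, and its part in these differences was not tested. In seedlings at 7 d, 17 of 24 chlorophyll synthesis genes rose and 1 fell, 12 of 18 Calvin cycle genes rose and 1 fell, 11 of 11 photorespiration genes rose, and GLK2 rose by 0.68 (SE 0.083, adjusted p = 3.82e-06) in the edgeR fit.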

How the data were processed

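The deposited files hold 1 table per library with TPM and the number of reads per gene. Per the file headers the read numbers are expected counts, with the estimating program not given in the sources used here, and the deposited TPM are the authors' own. The submitters' processing notes name build TAIR10. Promoters came from RefSeq TAIR10.1, which matched 52 of 52 loci. The files give no coordinates.

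After rounding, they were fitted with edgeR 4.0.16 in R 4.3.3 (TMM factors, quasi-likelihood F test), all groups of a tissue in 1 fit, and roots with shoots in a joint fit for differences between them. A gene was tested where 3 or more root or seedling libraries, or 4 or more shoot or joint ones, reached 1 TPM. SE was taken as the log2 fold change divided by the square root of F. The alternatives were DESeq2 1.42.0, limma 3.58.1 on log2(TPM + 1) and log2(TPM + 0.1), no filter, the compared groups alone, a replicate block and each library left out, with 3 added after seeing the data. A further set of edgeR fits summed the reads of copies alike in sequence. The fit was tested on simulated data. Members and lists were chosen with earlier results of these data known. Named genes were up to 5 called members each way by adjusted p and by size, with 10 fixed representatives of the roles and up to 3 genes of each other list. LHCB1.1, LHCB1.2, LHCB1.4, LHCB2.1 and LHCB2.2 were also followed through the groups after their values were seen.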

Additional observations from a re-analysis of the deposited data

Results flagged for a closer look

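In shoot groups of 4 libraries, the 7 role sums and 10 representative genes were searched in TPM for a library far from the other 3, which chance gives in about 1 of 20 groups. RBCS1A read 13393.5 TPM in wild-type replicate 1, above the other 3 libraries. In tpst-1 shoots, photosystem II subunits summed to 20477.7 TPM in replicate 2, PSAF read 1707.18 TPM in replicate 3, and RCA read 3257.31 TPM in replicate 2. Rubisco and activase summed to 20556.8 TPM in PSY5-treated replicate 2. PETE2 read 2202.32 TPM in psyr1,2,3 replicate 2, and LHCB5 3437.66 TPM in tpst/psyr1,2,3 replicate 1.

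Effects of 1 contrast that differed between groups, by the edgeR test of the difference, were found for 1 member (LHCB2.3) between the tpst-1 effect with and without the receptors in shoots. They were found for 7 members between the PSY5 effect in shoots and in roots, and for 21 members between the receptor-loss effect in shoots and in roots.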

How the results depend on the processing

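Counts of members called are given here beside those of the report. DESeq2 called 3 members for PSY5 in roots, 7 for tpst/psyr1,2,3 roots against tpst-1, 0 for tpst/psyr1,2,3 against PSY5 roots, and in shoots 2 for tpst-1, 6 for psyr1,2,3, 27 for PSY5, 14 for PSY5 against wild type, 31 for tpst/psyr1,2,3 against wild type and 2 for the interaction. In the same order limma on log2(TPM + 1) called 4, 10 and 0 in roots and 2 (both lower, a reversal), 1, 5 and 0 (interaction) in shoots, with 10 for tpst/psyr1,2,3 against tpst-1 and 8 against wild type. With log2(TPM + 0.1) these were 4, 10, 0, 2 (again reversed), 1, 4, 0, 10 and 8. Unscaled TPM moved the median of all genes by 0.33 in tpst/psyr1,2,3 and by 0.21 in PSY5 shoots against tpst-1. Without a TPM filter 8 members were called between the altered root groups, 5 at 2 h and 25 at 6 h. Fitting only the compared groups gave 5 between the altered root groups, in shoots 0 for tpst-1, 13 for psyr1,2,3, 0 for PSY5, 6 for tpst/psyr1,2,3, 36 and 44 for the contrasts with wild type, 2 for tpst/psyr1,2,3 against psyr1,2,3 and 0 for the interaction, 7 at 2 h, 9 at 24 h, and 1 and 5 for the shoot minus root differences.

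Of the alternatives added after seeing the data, limma after TMM scaling gave 4, 7 and 0 in roots, 6 for PSY5 shoots, 4 and 11 against wild type, 0 for the interaction, and 1, 7 and 8 at 2 h, 6 h and 24 h. Effective lengths as offsets gave 1 for psyr1,2,3 shoots, and with tpst-1 shoot library 1 also left out 5 for tpst-1 shoots, 1 higher and 4 lower. Replicate numbers did not pair the samples (correlations of same-numbered deviations -0.056 to 0.047 in roots, -0.131 to 0.107 in shoots, -0.130 to 0.078 in seedlings). A replicate block gave 11 for PSY5 shoots, 0 for the interaction and 3 for the PSY5 shoot minus root difference, and left the other counts within 1.5 times.

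Leaving out single libraries gave 3 to 8 for PSY5 roots, 6 to 14 for tpst/psyr1,2,3 roots and 0 to 3 between them. In shoots it gave 0 to 6 for tpst-1 (reversed without tpst-1 replicate 1, 6 members lower), 0 for psyr1,2,3, 1 to 26 for PSY5, 19 to 36 for tpst/psyr1,2,3, 1 to 8 and 7 to 15 against wild type and 0 to 3 for the interaction. In seedlings it gave 0 to 11 at 2 h, 3 to 32 at 6 h, 3 to 27 at 24 h (9 without 24 h replicate 3, 4 higher and 5 lower, with a median of 0.10), 42 to 49 at 7 d and 17 to 29 from 24 h to 7 d. The shoot minus root differences ranged from 2 to 7 and 8 to 24. The cause of these moves was not tested. Root depth (3206526 to 4133623 reads) limits members near 1 TPM.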
